A study of Mus musculus with 57 samples.

Results

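Gene expression in the nucleus accumbens (NAc) was compared with that in the ventral midbrain (VMB), the region dissected around the ventral tegmental area and labelled so. The 19 arrays titled NAc and the 19 titled as ventral tegmental area were used, 38 of 57 arrays in all. They were chosen by the region in their titles, and no measured value entered that choice. The animals were young male C57BL/6NCrl mice, an inbred strain, housed individually. Every mouse, in both groups, had the same drinking protocol, with a choice between 2 bottles of 10% (w/v) ethanol and tap water for 18 h a day over 16 sessions, and tissue was taken 6 days after the last session. No ethanol-naive mouse is among them, so each level below is that of a mouse with access to ethanol, and intake was not used here. Each array held RNA of 1 region of 1 mouse on an Affymetrix mouse expression array, and the replicate number in the title, taken here as the number of the mouse, joined 18 pairs of arrays. NAc has no array 10 and VMB no array 20, so NAc array 20 and VMB array 10 have no partner. Of the other 19 arrays, 18 are of prefrontal cortex, and 1 is titled as prefrontal cortex but labelled elsewhere as ventral tegmental area. That array was assigned to no group and entered no comparison, though it was among the arrays of the filter and of the normalization over all 57.

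The VMB holds the dopamine neurons whose axons release dopamine in the NAc, and this mesolimbic projection is studied for its part in reward and in drug and ethanol intake. The NAc belongs to the ventral striatum. Its main cells are GABAergic medium spiny neurons, which carry dopamine receptors and make opioid and tachykinin peptides. The VMB contains, beside dopamine neurons, GABA and glutamate neurons and many passing myelinated fibres. A transcript measured in whole tissue can differ because cells that make it are fewer or because each cell makes less, and these cannot be told apart in these data.

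Values are Robust Multichip Average (RMA) signals on the log2 scale, so a difference of 1 is a 2-fold change. They were put on 1 distribution by quantile normalization of the 38 arrays. Differences are NAc minus VMB, and a positive one means higher in NAc. A probeset was called when its limma p, adjusted by the Benjamini-Hochberg method over 19815 tested probesets, was under 0.01 and its difference at least 1 in size. Each gene is represented by 1 probeset, and levels are compared between regions for the same probeset, not between genes.

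The 2 regions were far apart. The first principal component of the 38 arrays held 73.1% of the variance and separated the regions, and the second held 9.05%. An array correlated with the others of its region at a mean of 0.986 to 0.994 in NAc and 0.988 to 0.994 in VMB, and with the arrays of the other region at 0.941 to 0.959 for NAc and 0.945 to 0.959 for VMB. Within a region the spread was small, with a median SD over probesets of 0.16 in NAc and 0.16 in VMB (n = 19 each). The medians of the deposited arrays did not overlap, lying between 6.26 and 6.32 in NAc and between 5.79 and 5.86 in VMB. No label gives a scan date or a batch, so a region and any processing done region by region cannot be told apart.

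Of 19815 probesets 865 (4.37%) were higher in NAc and 959 (4.84%) lower, 1824 (9.21%) in either direction. Among these 1824 the values of the 2 groups did not overlap for 1664, against 23.1% of all tested probesets, and 1770 had the same sign in all 18 pairs. With 1 probeset for each of 11342 genes, 511 (4.51%) were higher in NAc and 514 (4.53%) lower, 1025 (9.04%) in either direction. The counts of the gene lists below are to be read against these shares. Of 449 list genes that their brightest probeset did not call, 29 had another probeset that was called. A difference of at least 2, or 4-fold, was reached by 108 genes that were higher and 73 that were lower. Of the called probesets, 142 higher ones had a VMB mean under 4.5 and 156 lower ones a NAc mean under 4.5, the level a probeset had to reach on at least 1 array to be tested, so one side of those differences is a near-background value.

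**Figure D1:**
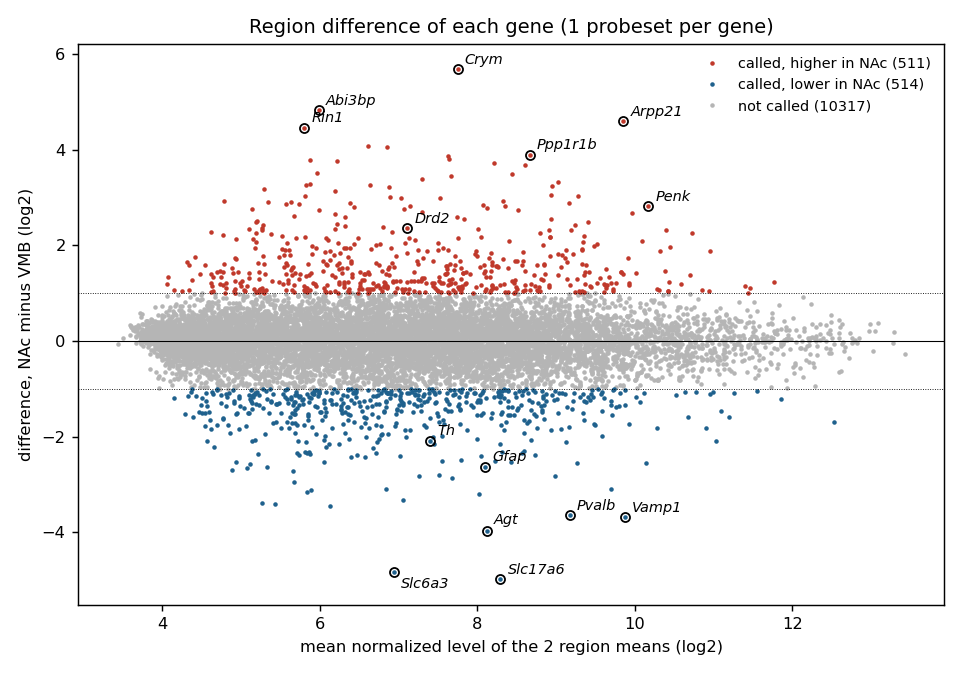
Difference between the regions for each of 11342 genes, NAc minus VMB in log2 units (vertical axis), against the mean normalized level of the 2 region means (horizontal axis). Red points are the 511 genes called higher in NAc, blue points the 514 called lower, grey points those not called, and the dotted lines mark a difference of 1 in each direction. The named genes reach from 5.68 for Crym to -4.98 for Slc17a6.

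The split into higher and lower depended on the scaling. When all 57 arrays of the series were quantile normalized together, 890 probesets were higher and 984 lower, and when each array was centred on its median 1014 were higher and 819 lower. On the values as deposited the median difference over all probesets was 0.55, and 3192 probesets were higher and 310 lower. All 865 higher calls were among those 3192, and 310 of the 959 lower calls remained. No called probeset changed sign under any of these scalings. The lower calls named below are therefore relative to the typical probeset, and smaller ones were not all called on the deposited scale. Of the genes named below as lower in NAc, Abcb1a, Ache, Cdh20, Chrna4, Cnr1, Fos, Gch1, Gria4, Grik1, Htr7, Mag, Mog, Nefl, Oprl1, Slc38a2, Slc4a4, Slc6a9, Tacr3, Uncx and Zic1 kept their sign there but fell short of the minimum, with differences from -0.45 for Oprl1 to -0.96 for Tacr3.

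**Figure D2:**
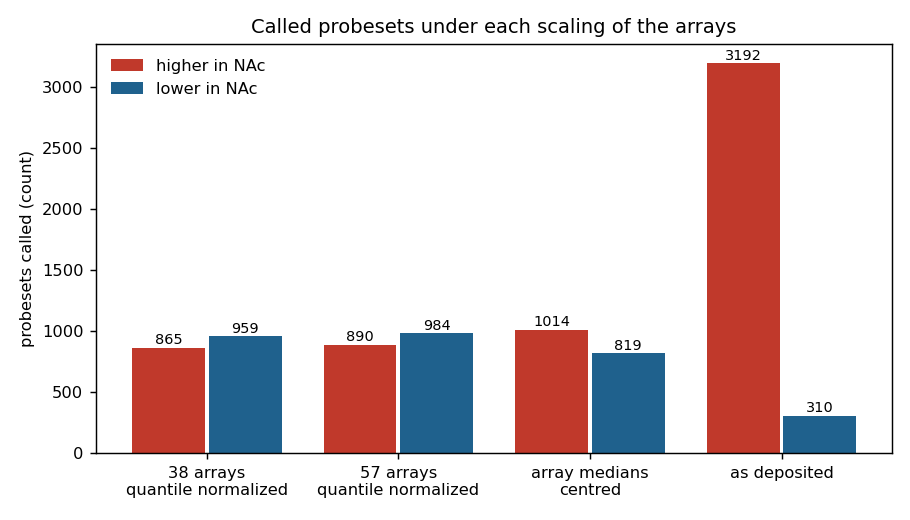
Number of probesets called higher in NAc (red) and lower in NAc (blue) under 4 ways of putting the arrays on a common scale. The quantile normalized and centred values give between 865 and 1014 higher and between 819 and 984 lower, and the deposited values 3192 higher and 310 lower.

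The labelled regions carried their markers. Drd2, the gene of a dopamine receptor on striatal neurons, lay between 7.98 and 8.76 (median 8.28) in NAc and between 5.60 and 6.51 (median 5.94) in VMB. Slc6a3, the dopamine transporter, lay between 4.30 and 4.77 (median 4.51) in NAc and between 8.96 and 9.69 (median 9.34) in VMB. Slc17a6, the vesicular glutamate transporter of midbrain and other subcortical glutamate neurons, lay between 4.83 and 6.57 (median 5.92) in NAc and between 10.38 and 10.96 (median 10.80) in VMB. For none of the 3 genes did the groups overlap, and no array had the profile of the other region. Drd2 was 5.15-fold higher in NAc (difference 2.36, SE 0.0715, adjusted p = 4.32e-29). Slc6a3 was 28.2-fold lower (difference -4.82, SE 0.0562, adjusted p = 1.05e-43) and Slc17a6 31.5-fold lower (difference -4.98, SE 0.110, adjusted p = 6.72e-34). In VMB Drd2 was well above 4.5, and dopamine neurons themselves are known to carry this receptor.

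**Figure D3:**
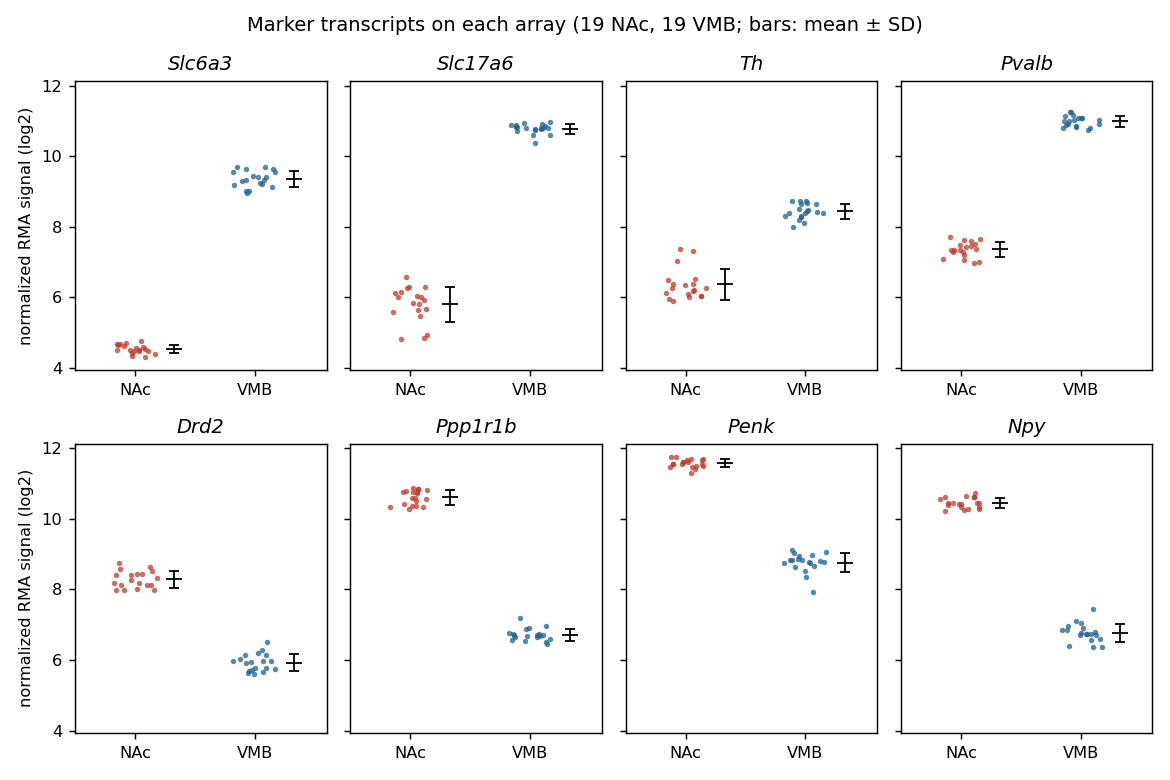
Normalized RMA signal (log2, vertical axis) of 8 genes on each of the 19 NAc arrays (red) and 19 VMB arrays (blue), with the mean and SD of each region beside the points. Slc6a3, Slc17a6, Th and Pvalb were lower in NAc and Drd2, Ppp1r1b, Penk and Npy higher, and for none of the 8 did the regions overlap.

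Of 8 tested of 11 listed genes of dopamine synthesis and transport, 5 were lower in NAc and none higher, with a median difference of -1.54, against 0.02 over all genes. Th, tyrosine hydroxylase and the rate-limiting enzyme of dopamine synthesis, lay between 5.90 and 7.36 (median 6.25) in NAc and between 7.99 and 8.74 (median 8.40) in VMB. The groups did not overlap, and Th was 4.23-fold lower in NAc (difference -2.08, adjusted p = 9.94e-22). Ddc, the decarboxylase that makes dopamine from L-DOPA, was at 6.98 ± 0.24 in NAc and 9.48 ± 0.19 in VMB (SD, n = 19 each, difference -2.50). Aldh1a1, an aldehyde dehydrogenase of a subset of dopamine neurons, was at 8.15 ± 0.26 and 11.24 ± 0.10 (difference -3.09). Gch1, the first enzyme of tetrahydrobiopterin synthesis, had the smallest called difference at -1.01, and its groups overlapped. Qdpr, which regenerates tetrahydrobiopterin, differed by -0.76, Maoa by -0.27 and Pts by 0.20, all under the minimum. The vesicular transporter Slc18a2 and Maob were not analysed here.

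Of 10 other markers of dopamine neurons tested, 4 were lower in NAc, 1 was higher and 5 were not called. Sncg, gamma-synuclein, was 10.9-fold lower (4.41 ± 0.13 in NAc and 7.86 ± 0.18 in VMB). Ret, the receptor of GDNF signalling that supports these neurons, differed by -2.34, and the nicotinic subunit Chrna6 by -1.70. Calb1, which marks a subset of dopamine neurons and also striatal neurons, differed by 0.86 in its brightest probeset, which was not called, and by 2.34, called and without overlap, in the other. Vip was higher in NAc by 1.92. Kcnj6, the GIRK2 channel, differed by -0.92 in its brightest probeset and between -0.09 and 0.23 in the others.

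The transcription factors that specify midbrain dopamine neurons did not move as 1 group. Of 8 tested, Foxa1 (difference -2.08), Otx2 (-1.51) and En2 (-1.51) were lower in NAc. Nr4a2, the nuclear receptor Nurr1, needed for these neurons to form, went the other way. It lay between 6.16 and 7.64 (median 6.97) in NAc and between 5.08 and 5.95 (median 5.47) in VMB. The groups did not overlap, and Nr4a2 was 2.85-fold higher in NAc (difference 1.51, SE 0.0968, adjusted p = 7.58e-18), with 0.61 in its second probeset. Nr4a2 is also an inducible gene of forebrain neurons. Foxa2 fell just short of the minimum (-0.99). Pitx3, a factor close to exclusive to dopamine neurons, was at 5.08 ± 0.26 in NAc and 4.92 ± 0.26 in VMB (difference 0.16, adjusted p = 0.0633), and Lmx1a and Lmx1b were near background in both regions.

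Striatal signalling genes were higher in NAc. Of 12 tested of 22 listed genes of dopamine and cAMP signalling, 10 were higher and none lower, with a median difference of 2.13. Ppp1r1b, DARPP-32, the protein through which dopamine controls protein phosphatase 1 in medium spiny neurons, lay between 10.28 and 10.88 (median 10.60) in NAc and between 6.46 and 7.19 (median 6.70) in VMB. Its groups were far apart, at 14.9-fold (difference 3.89, SE 0.0584, adjusted p = 1.05e-39). Arpp21, a cAMP-regulated phosphoprotein of the same neurons, differed by 4.59, and its other probesets by 1.33 to 5.14. The phosphodiesterase Pde10a differed by 2.85, the G-protein regulators Rgs9 by 2.74 and Rgs14 by 2.56, and the striatal-enriched phosphatase Ptpn5 by 1.21. Drd3, the D3 receptor, and Chrm4, a muscarinic receptor of medium spiny neurons, were near background in both regions, with Drd3 at 3.85 and 3.71 and Chrm4 at 3.97 and 3.91 in NAc and VMB. Drd1, Adora2a, Adcy5 and Gnal, which mark the same neurons, were not analysed here.

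Developmental transcription factors differed between the regions in both directions. Of 17 striatal factors 11 were higher in NAc and 1 lower, and of 10 forebrain patterning factors 8 were higher and none lower, with median differences of 1.57 and 2.17. Bcl11b (Ctip2), a factor of medium spiny neurons, was at 10.08 ± 0.13 in NAc and 6.34 ± 0.25 in VMB (difference 3.73), Foxp1 at 10.19 ± 0.20 and 6.69 ± 0.27 (3.50), and the retinoic acid receptor Rarb at 8.99 ± 0.18 and 5.61 ± 0.25 (3.39). All 7 probesets of Foxp1 were higher in NAc, by 1.29 to 3.99. Isl1, a factor of striatonigral neurons, was 8.21-fold higher. The 4 Dlx genes, which direct development of forebrain GABA neurons, were near background in VMB and 3.52 (Dlx1), 3.17 (Dlx2), 2.50 (Dlx6) and 2.34 (Dlx5) higher in NAc. The exception was Ebf1, a factor of direct-pathway striatal neurons, which was lower in NAc in its brightest probeset (difference -1.51) and by -0.81 and -0.79 in the others.

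Midbrain and hindbrain patterning factors were lower in NAc or did not differ by 1. Of 30 tested, 13 were lower and none higher, with a median of -0.85. Irx3, an Iroquois homeobox gene, lay between 3.54 and 3.90 (median 3.73) in NAc and between 6.45 and 7.58 (median 7.22) in VMB. Every VMB array was thus above every NAc array (10.6-fold, adjusted p = 3.08e-36), and the NAc values were near background. Irx2 (-2.53), Irx1 (-1.95) and Irx5 (-1.65) of the same family were lower too. Ebf3, a factor of early neurons (difference -3.37), Tal1 (-2.95) and Gata3 (-1.59), which specify midbrain and hindbrain GABA neurons, and the thalamic and midbrain factor Shox2 (-2.21) followed. Zic1, at 8.49 ± 0.50 in NAc and 9.91 ± 0.30 in VMB, was well above background in both. The brightest probeset of Tcf7l2, a thalamic and midbrain Wnt effector, differed by -0.52 and was not called, while its other 3 probesets differed by -3.67 to -2.77.

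**Figure D4:**
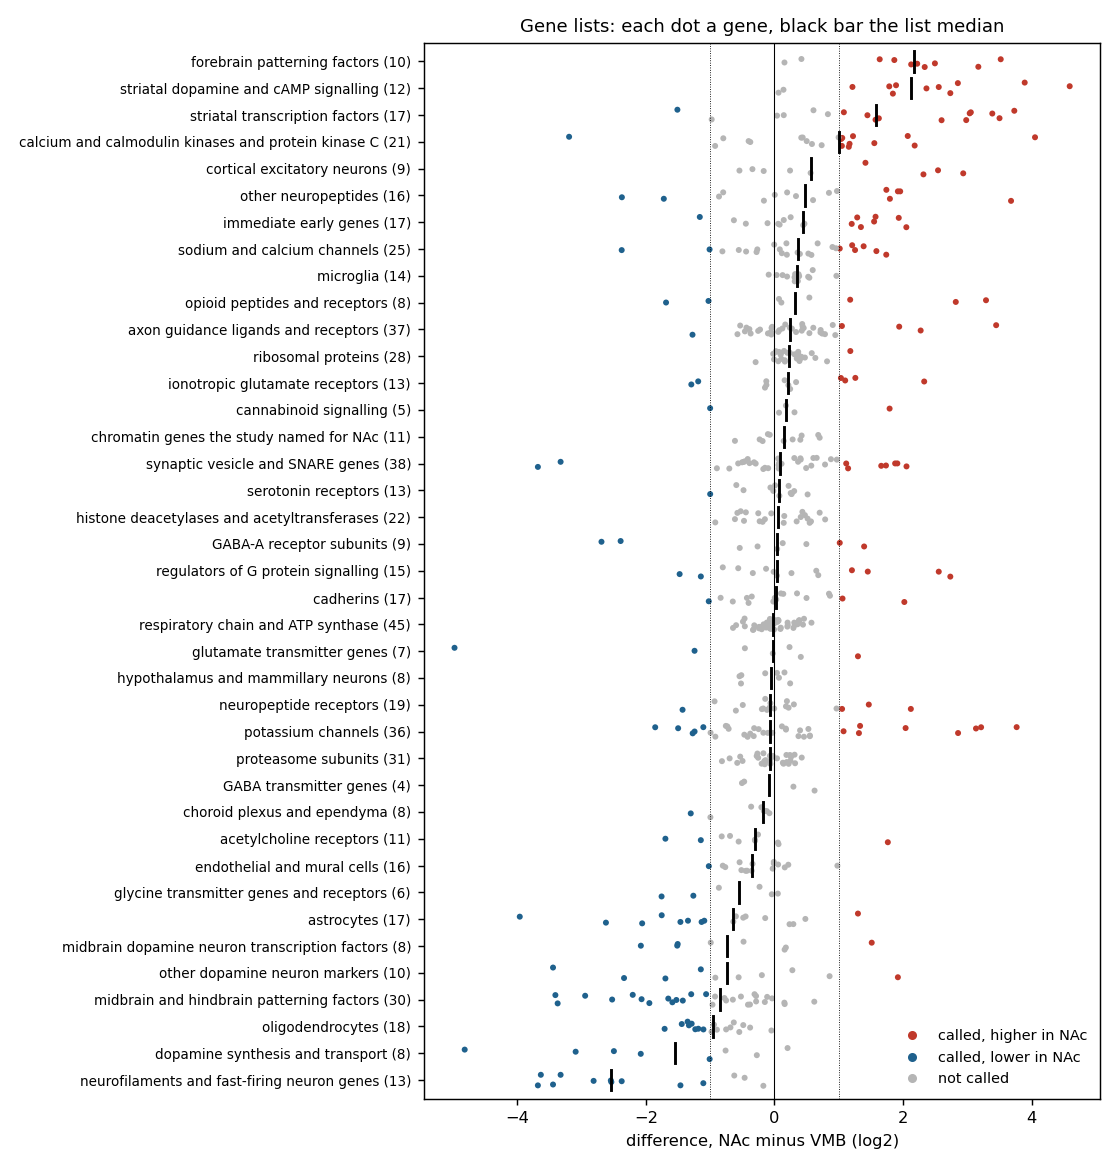
Difference between the regions, NAc minus VMB in log2 units, of every tested gene of 39 lists with at least 4 tested genes (number tested in parentheses), ordered by the list median (black bar). Red dots were called higher in NAc, blue dots called lower, grey dots not called. Medians run from 2.17 for forebrain patterning factors to -2.54 for neurofilaments and fast-firing neuron genes.

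Of 7 glutamate transmitter genes 2 were lower in NAc and 1 higher, with a median difference of -0.03, and none of 4 GABA genes was called, with a median of -0.09. Beside Slc17a6, the glutamate precursor transporter Slc38a2 was lower in NAc (-1.24), and Slc1a3, the glial glutamate transporter GLAST, was higher (1.30). The GABA enzymes and transporter did not reach a difference of 1, with Slc32a1, the vesicular GABA transporter, at 0.62, Gad1 at 0.29, Gad2 at -0.47 and the degrading enzyme Abat at -0.51. GABA neurons are abundant in both regions. Slc6a4, the serotonin transporter, lay between 4.07 and 4.79 (median 4.30) in NAc and between 6.12 and 8.13 (median 7.58) in VMB, 8.65-fold lower in NAc (difference -3.11, adjusted p = 8.16e-26). Its SD was 0.16 in NAc and 0.53 in VMB, and the groups did not overlap. Serotonin neurons lie in the raphe nuclei next to the ventral midbrain. Glycine genes, more used in the hindbrain, had 2 of 6 tested genes lower in NAc, the glycine receptor Glra1 (-1.76) and the transporter Slc6a9 (-1.26). Of the cholinergic genes tested, Ache was lower in NAc (-1.10), and Slc18a3 and Slc5a7, near background in both regions, differed by -0.26 and -0.12.

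Opioid peptides differed by type. Penk, the precursor of enkephalins, lay between 11.31 and 11.76 (median 11.57) in NAc and between 7.94 and 9.13 (median 8.82) in VMB. Pdyn, the precursor of dynorphins, lay between 7.25 and 7.92 (median 7.49) in NAc and between 4.10 and 4.51 (median 4.18) in VMB. Neither gene's groups overlapped. Penk was 7.07-fold higher in NAc (difference 2.82, SE 0.0638, adjusted p = 1.60e-33) and Pdyn 9.79-fold higher (3.29, SE 0.0513, adjusted p = 3.79e-39). Pnoc, the precursor of nociceptin, was 3.22-fold lower in NAc (-1.69), and its receptor Oprl1 was lower too (-1.03, with -1.63 to -1.07 in other probesets). The kappa receptor Oprk1, which binds dynorphin, was higher (1.18), while the mu receptor Oprm1 differed by 0.54, close to background, and the delta receptor Oprd1 by 0.11. Of 8 genes, 3 were higher and 2 lower.

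Of 16 other neuropeptides tested, 5 were higher in NAc, 2 lower and 9 not called. Npy, neuropeptide Y of striatal interneurons, was at 10.45 ± 0.15 in NAc and 6.77 ± 0.26 in VMB (12.8-fold, difference 3.68). Tac1, the substance P precursor of direct-pathway neurons, was at 11.43 ± 0.11 and 9.47 ± 0.37 (difference 1.96), and Sst, somatostatin, at 10.78 ± 0.11 and 9.04 ± 0.18 (difference 1.74). Vip (1.92) and Tac2 (1.80) were higher as well, and the groups overlapped for Tac2, where a VMB array reached 6.80 against a VMB median of 4.41. Grp, gastrin-releasing peptide, was 5.18-fold lower in NAc (-2.37), and Ucn, urocortin, a peptide of the corticotropin-releasing family made in the Edinger-Westphal nucleus of the midbrain, 3.30-fold lower (4.79 ± 0.24 in NAc and 6.51 ± 0.25 in VMB, difference -1.72). Cck (0.97), Nts (0.85) and Cartpt (-0.80) stayed under 1. Among 19 peptide receptors, by the brightest probeset, the thyrotropin-releasing hormone receptor Trhr (2.12), Npy2r (1.47) and Cckbr (1.05) were higher. The neurokinin receptor Tacr3 was lower (-1.43). Crhr1 (-0.93) and Adcyap1r1 (-0.49) were not called by that probeset, but another probeset of each was called lower (-1.49 and -1.09).

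Sst, Th and Ucn, which moved in opposite directions, share a promoter element. The palindromic cAMP response element TGACGTCA, shown in capitals, lies 48, 45 and 44 bases before the start site of Sst, Th and Ucn. The 120 bases before each start site are printed 5′ to 3′ on the gene's strand, from RefSeq on GRCm38.p6, to show a short shared stretch in genes with unlike regional levels. They lie at chr16:23890845-23890964, chr7:142899996-142900115 and chr5:31138896-31139015, all on the minus strand.
Sst: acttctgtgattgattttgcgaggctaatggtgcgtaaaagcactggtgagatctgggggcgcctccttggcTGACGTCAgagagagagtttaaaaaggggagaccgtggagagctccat
Th: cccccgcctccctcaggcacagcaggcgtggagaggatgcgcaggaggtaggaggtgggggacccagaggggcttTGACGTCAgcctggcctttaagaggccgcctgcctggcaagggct
Ucn: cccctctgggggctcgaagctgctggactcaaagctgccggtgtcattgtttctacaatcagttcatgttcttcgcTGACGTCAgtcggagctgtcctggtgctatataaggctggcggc
Sst was higher in NAc, and Th and Ucn were lower. They were picked from a longer set of list genes that hold the element. Of the others Uncx was called lower (-1.06), and the rest, such as Scg2 (0.33), Sstr2 (0.18) and Cartpt (-0.80), were not called. The element, which reads the same on both strands, was found in the same stretch for 1.24% of 32851 start sites, for 2.23% of 9067 tested genes with a promoter, for 2.22% of 405 genes called higher in NAc and for 3.41% of 411 called lower. These matches are letters in a window and were not tested as binding sites.

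Receptor families held members that differed in both directions. Among AMPA receptor subunits, Gria2, which makes the channel impermeable to calcium, was at 11.56 ± 0.12 in NAc and 9.23 ± 0.20 in VMB (5.03-fold higher, difference 2.33), and Gria3 (1.26) and Gria1 (1.03) were higher as well. Gria4, the subunit of fast-spiking neurons, was lower (-1.29). Of the kainate subunits, Grik5 was higher (1.10) and Grik1 lower (-1.19), and the 4 tested NMDA subunits Grin2a to Grin2d differed by -0.13 to 0.34. Among 9 GABA-A subunits, Gabrd (1.40) and Gabrb1 (1.02) were higher in NAc. The groups overlapped for Gabrd, whose SD was 0.15 in NAc and 0.64 in VMB. Gabrb2, which pairs with the alpha 1 subunit in many brainstem neurons, was at 5.83 ± 0.23 in NAc and 8.22 ± 0.59 in VMB (5.25-fold lower, difference -2.39). The muscarinic receptor Chrm1 was 3.40-fold higher in NAc, while the nicotinic subunits Chrna6 (-1.70) and Chrna4 (-1.15), which form receptors of dopamine neurons, were lower. Of 13 serotonin receptors 1 (7.69%) was called, against 9.04% of all genes. It was Htr7 (-1.0), with groups that overlapped. In cannabinoid signalling the lipase Mgll was higher (1.79) and the receptor Cnr1 lower at -1.0, and the Cnr1 call was lost without VMB mice 3, 4, 6 and 8 (-0.99), without the VMB arrays of high Gabra6 described below (-0.94) and without 6 NAc arrays of narrow spread (-0.97).

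Channels and proteins of fast-firing neurons were lower in NAc. Of 13 genes of neurofilaments and fast firing 10 were lower and none higher, with a median of -2.54. Pvalb, parvalbumin, lay between 6.98 and 7.70 (median 7.35) in NAc and between 10.73 and 11.27 (median 11.01) in VMB. Vamp1, a vesicle SNARE of fast synapses, lay between 7.73 and 8.37 (median 8.05) in NAc and between 11.34 and 11.93 (median 11.73) in VMB. The groups overlapped for neither. Pvalb was 12.4-fold lower in NAc (difference -3.64, adjusted p = 6.31e-39) and Vamp1 12.8-fold lower (-3.68, adjusted p = 3.80e-40). The calcium sensor Syt2 (-3.33, but -1.01 and -0.75 in its other probesets), the neurofilament subunits Nefh (-2.81), Nefm (-2.55) and Nefl (-1.46), the sodium channel Scn1a (-2.38) and the calcium-binding protein Calb2 (-2.54) were lower. Kcna1 (-0.17) was under the minimum, as was Prph in its brightest probeset (-0.46), while another Prph probeset was called lower (-1.46).

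Other channels were mixed. Of 36 potassium channel genes 8 (22.2%) were higher in NAc and 5 (13.9%) lower. The higher ones were led by Kcnip2, a subunit that tunes A-type current (difference 3.77, with 0.42 in its second probeset), the inward rectifier Kcnj4 (3.21), Kcna5 (3.14) and Kcnq5 (2.86). The lower ones were led by Kcnj10, the inward rectifier of glia (-1.86), and Kcna6 (-1.50). Of 25 sodium and calcium channel genes 6 were higher and 2 lower, with Scn2a 3.0-fold higher (10.18 ± 0.16 in NAc and 8.59 ± 0.20 in VMB), opposite to Scn1a.

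Of 21 genes of calmodulin and protein kinase C signalling 10 were higher and 1 lower, with a median of 1.0. Itpka, the inositol trisphosphate kinase of dendritic spines, was 16.6-fold higher (8.89 ± 0.17 in NAc and 4.83 ± 0.41 in VMB), and Nrgn, neurogranin, which binds calmodulin in spines, 4.54-fold higher. Prkcd, protein kinase C delta, lay between 6.02 and 6.92 (median 6.40) in NAc and between 8.03 and 10.96 (median 9.68) in VMB. It was 9.16-fold lower in NAc (difference -3.20, SE 0.159, adjusted p = 1.53e-21), without overlap, and its spread among VMB arrays was wide (SD 0.73). Of 38 vesicle genes 7 (18.4%) were higher, among them Cplx3 (2.05), Synpr (1.91) and Syt5 (1.88), and 2 (5.26%) were lower, Vamp1 and Syt2. The other 29 were not called by their brightest probeset, from Snap25 and Syt1, core parts of the release machinery (each 0.06), to Unc13a (0.97), and Cplx1 (-0.50) had another probeset called lower (-1.25). Of 37 guidance genes 4 (10.8%) were higher and 1 (2.7%) lower, against 4.51% and 4.53% of all genes. By the brightest probeset, the ephrin Efnb2 (3.45, and 0.74 to 2.01 in its other probesets) and the semaphorin Sema3a (2.27) led. Epha7 differed by 0.72 in its brightest probeset, which was not called, while others were called higher (1.88 and 2.73). Of 17 cadherins 2 (11.8%) were higher, Cdh9 (2.02) and Cdh13 (1.06), and 1 (5.88%) lower, Cdh20 (-1.02).

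Immediate early genes, which neurons switch on with activity, were higher in NAc for 7 of 17 and lower for 1. Egr1 was at 10.30 ± 0.17 in NAc and 8.36 ± 0.16 in VMB (3.82-fold, difference 1.93), Homer1 differed by 2.05 and Junb by 1.55. Fos went the other way, between 5.16 and 7.28 (median 5.85) in NAc and between 6.42 and 7.54 (median 7.05) in VMB. The groups overlapped, and Fos was 2.24-fold lower in NAc (difference -1.16, adjusted p = 2.07e-12). Without 6 NAc arrays of narrow spread its difference was -0.99, under the minimum. Jun differed by -0.45 in its brightest probeset, which was not called, and by -1.17, called and without overlap, in the other. Arc differed by 0.25. Opposed values of Egr1 and Fos were thus found on the same arrays.

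Genes outside every list led the ranking too. Crym, mu-crystallin, a thyroid hormone binding protein of striatum and cortex, had the largest difference of all genes (5.68, 51.1-fold, adjusted p = 3.32e-26). It lay between 10.19 and 10.77 (median 10.68) in NAc and between 3.70 and 6.68 (median 4.53) in VMB, so NAc varied little and VMB widely (SD 0.16 and 0.99). Abi3bp, an extracellular matrix protein, was 28.3-fold higher in NAc, the Ras effector Rin1 22-fold, the Rac activator Tiam2 16.8-fold and Icam5, the adhesion molecule of forebrain dendrites, 14.5-fold. Ido1, which degrades tryptophan, was 13.7-fold higher. Among the lower genes were Ogn, an extracellular matrix proteoglycan (8.94-fold) and Tnnt1, a troponin subunit (8.58-fold).

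Glial transcripts differed between the regions as well. By the brightest probeset, all 18 tested oligodendrocyte genes had negative differences, and 8 were called lower in NAc and none higher, with a median of -0.96. Their mean level per array was 8.72 to 9.03 in NAc and 9.60 to 9.92 in VMB. Aspa, which cleaves N-acetylaspartate in myelinating cells, was 3.27-fold lower, Mog 2.72-fold and Mag 2.55-fold. Mbp, myelin basic protein, was near the top of the scale in both, at 13.26 ± 0.11 and 13.31 ± 0.06 in NAc and VMB. Its other probesets differed in both directions, from -0.98 to 0.90, and none was called. Cnp and Mobp were not called by their brightest probesets, but others were called lower (-1.22 and -1.95 for Cnp, -1.08 and -1.02 for Mobp). Of 17 astrocyte genes 8 were lower and 1, Slc1a3, higher, with a median of -0.64 and a mean level of 8.79 to 9.05 in NAc and 9.74 to 9.89 in VMB. Agt, angiotensinogen, which astrocytes of the brainstem and midbrain make, was 15.6-fold lower in NAc (6.14 ± 0.30 and 10.10 ± 0.19 in NAc and VMB), Gfap 6.16-fold and Aqp4, the water channel, 3.37-fold. Slc4a4, a bicarbonate transporter, was the one called gene with a probeset called the other way, at -1.35 in its brightest probeset and 0.10 and 2.04 in the others. These glial levels move with the region beside every neuronal gene above, and their part in those results was not tested.

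Of 14 microglial genes none was called by limma at a minimum difference of 1, against 9.04% of all genes, although 12 passed the adjusted p, 13 had positive differences (median 0.34) and Laptm5 reached 0.96. Of 16 endothelial and mural genes 12 passed the adjusted p and 1, Abcb1a, was called (-1.02), with a median of -0.35. Both tested blood genes passed the adjusted p without being called, Alas2, the first enzyme of haem synthesis in red cells, at -0.92 and Hba-a1, a haemoglobin chain, at -0.15. Cortical excitatory neuron markers were partly higher in NAc, with a median difference of 0.56 over 9 genes. Of these, 6 differences were positive and 3 negative, down to -0.54. The transcription factor Tbr1 lay between 5.68 and 6.78 in NAc and between 3.16 and 3.69 in VMB (7.66-fold higher), Neurod6 was 4.99-fold and Mef2c 5.84-fold higher, and 4 of 9 markers in all were called. The mean level of this list was 6.58 to 7.17 in NAc and 5.61 to 6.15 in VMB, and its part in the NAc results was not tested.

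Of 31 proteasome subunits and 45 respiratory chain and ATP synthase genes none was called by its brightest probeset, with medians of -0.07 and -0.02, and 24 and 32 of them passed the adjusted p alone. Other probesets of Psmd11 (1.05), Ndufs4 (1.04) and Atp5a1 (1.02) were called higher. Of 28 ribosomal protein genes Rpl37 was higher in NAc (1.18), and 25 had positive differences with a median of 0.22. By the brightest probeset, none of 22 histone deacetylases, acetyltransferases and partners was called, nor any of 11 chromatin genes that the study named for NAc on these same arrays, so that list is not independent of them. The study named them for a correlation with ethanol intake among mice within NAc, which a comparison of regions does not address. Those 11 genes, Kat6a, Hdac11, Rbbp7, Dnmt1 and Cbx5 among them, differed by -0.62 to 0.70. Other probesets of Kmt2a (1.28) and Sin3b (1.13) were called higher and one of Rbbp4 (-1.87) lower. At adjusted p under 0.01 with no minimum difference 7667 probesets were higher and 7025 lower, so a difference under 1 was usually still measurable.

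Some genes varied among mice in 1 region only. Gabra6, the GABA-A subunit of cerebellar granule cells, lay between 3.29 and 3.73 in NAc but between 3.64 and 8.98 in VMB (median 6.67). It was highest in VMB mice 10 (8.98), 14 (8.70), 13 (8.11) and 4 (8.08), and lowest in mice 1 (3.64), 9 (3.96) and 17 (4.03). Pcp2, a Purkinje cell gene, ran with it from 4.88 to 9.86 in VMB, and so did Car8, Ppp1r17 and Neurod1. Across the 19 VMB arrays Gabra6 correlated with Car8 at r = 0.974 (rho 0.944), with Ppp1r17 at 0.964 (rho 0.956), with Neurod1 at 0.954 (rho 0.933) and with Pcp2 at 0.944 (rho 0.944). Without the 2 arrays farthest from the median of Gabra6, r was 0.969, 0.953, 0.953 and 0.947. These genes were taken for their spread or for this pattern, so the correlations are a description of these arrays and carry no test. En2, called lower in NAc above, correlated with Gabra6 at 0.826 (rho 0.849), and Zic1 at 0.304 (rho 0.202). Gabra6, Pcp2, Car8 and Neurod1 are among the genes of largest SD in VMB, and Ppp1r17 was chosen after its values were seen.

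**Figure D5:**
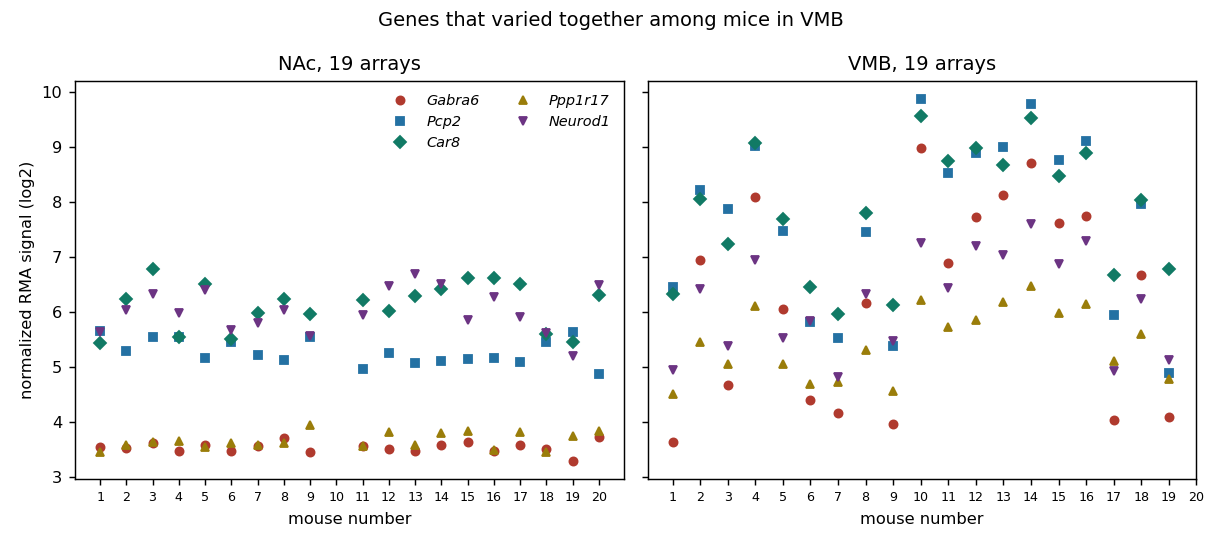
Normalized RMA signal (log2, vertical axis) of Gabra6, Pcp2, Car8, Ppp1r17 and Neurod1 by mouse number (horizontal axis) on the 19 NAc arrays (left) and 19 VMB arrays (right), with 1 point per gene and array. Gabra6 stayed between 3.29 and 3.73 in NAc, whereas in VMB it spread from 3.64 to 8.98 and the other genes were high in the same mice.

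Gabra6 was called lower in NAc over all arrays (6.46-fold, difference -2.69, adjusted p = 3.18e-08), with groups that overlapped. The comparison was repeated without the 13 VMB arrays on which Gabra6 reached 4.5. The 6 VMB arrays kept were those of mice 1, 6, 7, 9, 17 and 19. Of these, mice 1, 6 and 7 had the high Gnb1 described below, so the arrays kept differ in more than Gabra6. That choice itself removes the high values of Gabra6 and of the genes that ran with it, whose differences are then no result. Over all probesets 914 were higher and 955 lower, with 824 of the 865 higher and 883 of the 959 lower calls kept. Of the named genes 104 of 108 higher and 77 of 86 lower calls were kept. The higher calls lost were Camk4, Gabrb1 (0.93), Plxna2 (0.97) and Prkch (0.89), and the lower ones lost, beside Gabra6, Pcp2 and Car8, were Gch1 (-0.82), Oprl1 (-0.91), Htr7 (-0.92), Uncx (-0.94), Cnr1 (-0.94) and Cacna2d2. Th, Slc6a3 and Slc17a6 stayed called.

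Transcripts known from other structures near the dissection were high on a few arrays. Of those below, Ttr was higher on every VMB array than on any NAc array, and Cdhr1 higher on every NAc array than on any VMB array. Gh, growth hormone of the pituitary, lay between 4.94 and 5.92 in NAc, whereas it reached 9.54 in VMB mouse 3, 7.55 in mouse 4 and 6.67 in mouse 6, with a VMB median of 5.18. Ttr, transthyretin of the choroid plexus, was 11.59 in VMB mouse 6 and at most 7.68 in the other VMB mice. The lowest VMB value of Ttr was 6.34, and in NAc it lay between 5.43 and 6.29. Ttr was called lower in NAc over all arrays (difference -1.30), and its other probesets differed by -3.58 and -2.65. Hcrt, the orexin precursor of the hypothalamus, was 8.09 in VMB mouse 8 and at most 5.82 in the others. In NAc, S100a5, an olfactory gene, was 6.12 and 6.10 in mice 20 and 17, and at most 4.49 in the others. Cdhr1 of the olfactory bulb reached 8.46 and 8.35 in the same mice, but was also 7.75, 7.63 and 7.59 in NAc mice 1, 11 and 6. Its lowest NAc value was 6.15 and its highest VMB value 5.77. Cdhr1 was called higher in NAc over all arrays (difference 1.70), and the call was kept without NAc mice 17 and 20. Th, which olfactory bulb neurons also make, was 7.31 and 7.36 in NAc mice 20 and 17 against a NAc median of 6.25. Without VMB mice 3, 4, 6 and 8, 871 probesets were higher and 991 lower, and without NAc mice 17 and 20, 858 were higher and 965 lower. The part of these transcripts in single results was not tested beyond that.

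Another set of genes varied together in both regions. Gnb1, a G-protein beta subunit, lay between 9.17 and 11.90 in NAc and between 8.15 and 11.40 in VMB, and had the largest SD of all genes in NAc (1.05). It was 11.44 or more in NAc mice 1, 4, 6, 9, 18 and 19 and at most 10.38 in the other NAc mice. Otub1, Rpl27a, Sdc4, Nipsnap2 and Ap2a2 were high on the same 6 arrays. In VMB Gnb1 was 11.24 or more in mice 1, 6 and 7 and at most 10.11 in the others. The mice were only partly the same, as Gnb1 was 9.17 in NAc mouse 7, and 9.64, 9.57, 8.59 and 8.69 in VMB mice 4, 9, 18 and 19. VMB arrays 1, 6 and 7 were not left out as a set. The deposited values of the 6 NAc arrays had an SD of 2.08 to 2.14 over probesets, against 2.17 to 2.21 on the other 13 NAc arrays. Without them 903 probesets were higher and 867 lower, with 821 of the 865 higher and 829 of the 959 lower calls kept. Of the named genes 104 of 108 higher and 81 of 86 lower calls were kept, and those lost were Cckbr (0.96), Grik5 (0.99), Plxna2, Prkcb (0.97), Abcb1a (-0.97), Cacna2d2 (-0.91), Cnr1 (-0.97), Fos (-0.99) and Oprl1 (-0.93).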

How the data were processed

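The authors deposited RMA expression values on the log2 scale for Affymetrix arrays, 1 column per array. The deposited column medians differ by region, so the 38 NAc and VMB columns were quantile normalized together. The 19 other columns entered only the filter and the alternative normalization over all 57 arrays. Probesets that reached 4.5 on at least 1 of 57 arrays were tested (19815 of 22626). Probeset names came from the platform's annotation (20380 with 1 gene symbol, 691 with several, 1555 with none), and a gene was represented by its single-symbol probeset of highest mean. The chromosome and promoter of a gene came from RefSeq. Arrays measure no read depth, and their number limits the precision.

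NAc was compared with VMB in limma 3.58.1 (R 4.3.3, statmod 1.5.0), with the mouse number as a random block and Benjamini-Hochberg adjustment. The number comes from the titles. The labels do not say that a number is the same mouse in each region. It was taken so because the study describes 1 array per animal and region, although some numbers lack an array of NAc or VMB. Deviations of same-numbered arrays from their region means correlated at a mean of 0.0708, against 0.00231 for other NAc and VMB pairs (permutation p = 0.295, two-sided, 10000 permutations), and 10 of 18 pairs exceeded 0.1. The fit was tested on simulated data.

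Named genes are the tested members of 43 gene lists, the 15 called genes with the largest difference in each direction among those with the same sign in all 18 pairs, and the 10 genes of largest SD in each region. Any other gene was chosen after its values were seen, as stated beside it. The comparison, its genes and the lists were chosen with earlier results of these data known. Lists are described by counts and medians without a test. Alternatives changed the scaling, the block, the thresholds, the filter, the weights and the arrays used.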

Additional observations from a re-analysis of the deposited data

How the results depend on the processing

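The scaling and the call rule moved the counts most. On the deposited values 3192 probesets were higher in NAc and 310 lower, with limma's treat against a minimum of 1 the counts were 573 and 545, with no minimum difference 7667 and 7025, with a minimum of 2 they were 169 and 128, and with 1 probeset per gene 511 and 514. The other alternatives stayed within 1.5 times of 865 and 959. They were median centring (1014 and 819), normalization over 57 arrays (890 and 984), no replicate block (865 and 957), the 18 pairs with a fixed replicate block (868 and 962), an adjusted p under 0.05 (865 and 959), no filter (865 and 959), a mean of at least 6 (746 and 799) and array weights (861 and 884). Of the 1824 calls the missing block lost 3 and the fixed block 18, and among named genes the calls of Htr7 and Cacna2d2 were the only ones these fits lost. Of 108 named genes higher in NAc all were kept on the deposited and on the centred values, and of 86 lower ones 49 and 77. After the data were seen, arrays were also left out. Without NAc mice 17 and 20 there were 858 and 965 calls, without VMB mice 3, 4, 6 and 8 there were 871 and 991, without the 13 VMB arrays of high Gabra6 there were 914 and 955, and without NAc mice 1, 4, 6, 9, 18 and 19 there were 903 and 867. No called probeset changed sign in any alternative listed here.

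Region and any processing by region cannot be told apart, and the labels give no batch. Every mouse had access to ethanol, so nothing here describes the regions of ethanol-naive mice. A probeset can read 1 transcript form of a gene, and 1 called gene, Slc4a4, had probesets called in both directions. Where one region lies near background, the size of the difference is limited by that background. Transcripts of neighbouring structures varied among mice, and the cause was not tested.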
